A study of Homo sapiens with 6 samples.

Results

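The immediate early genes of the FOS, JUN and EGR families, with IER2, were followed in the THP-1 line, which comes from a human monocytic leukaemia. The members were 10 named genes, FOS, FOSB, FOSL2, JUN, JUNB, JUND, EGR1, EGR2, EGR3 and IER2, and all 10 were found by their NCBI gene identifier among the 26347 identifiers of the count table. They were listed as immediate early transcription factors by name, not by their values, although earlier results of these data were known when the list was made. RNA was taken 24 h after transfection with a synthetic microRNA, either a miR-125a-5p mimic (3 libraries) or a negative control mimic (3 libraries). The labels name no genetic change in either group, the same growth medium for both, and a transfection for both. The study's title speaks of macrophages, whereas the labels name monocytic cells and no differentiation step.

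Immediate early genes are switched on within minutes of a stimulus by factors already present in the cell. Extracellular signals run through the MAP kinase cascade to the serum response factor SRF, its ELK partners and the CREB family, which sit on the promoters of these genes. FOS proteins pair with JUN proteins through a leucine zipper and form the transcription factor AP-1. EGR proteins bind GC-rich DNA through zinc fingers. In monocytes and macrophages these genes are known to respond to adhesion, growth factors, phorbol esters and microbial products, and EGR1, EGR2 and JUN are linked to monocytic differentiation. Their messages are usually short-lived, so a sample taken long after a stimulus mostly holds a resting level.

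The libraries held 8256149 to 9356861 counts after the miR-125a-5p mimic and 8423228 to 10257791 after the control mimic. Levels are given in CPM, counts scaled to a common library total with TMM factors (trimmed mean of M-values). Control library 1 stood apart from the others. Its chi-square statistic per gene against each other library was 9.93 to 13.5, while all other pairs lay between 4.0 and 7.23. The differences of the members and of the genes named from related lists are therefore also given without it. All 15 markers of monocytic cells were detected, with summed levels of 4286 to 4457 CPM after the miR-125a-5p mimic and 4366 to 4852 CPM after the control mimic. Summed T cell markers stayed at or below 0.359 CPM after the miR-125a-5p mimic and 0.829 CPM after the control mimic, and CD3E was at 0. For epithelial markers the limits were 0.120 and 1.08 CPM, with KRT18 and KRT19 at 0. Erythroid sums were 1.85 to 5.39 CPM and 2.49 to 5.0 CPM, with HBA1 and HBB at 0, and fibroblast sums 1.52 to 2.94 CPM and 1.55 to 3.67 CPM. B cell sums were 45.03 to 62.7 CPM and 54.0 to 86.5 CPM, nearly all of it PAX5 (mean 57.1 CPM). The row of the mimic's own gene, MIR125A, held 1 count, in control library 3, and does not check the labels, because that gene is not the source of a synthetic mimic. Separate cultures or days are not stated, so the p-values speak of the spread among these 6 libraries and that spread may be technical.

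The comparison asked which members differed after the miR-125a-5p mimic. None of the 8 members with enough counts to be tested passed edgeR's quasi-likelihood test after Benjamini-Hochberg adjustment across the 14731 genes tested (adjusted p 0.833 to 0.988). In the whole table that test called 0 genes higher (0%) and 4 lower (0.0272%). At an unadjusted p under 0.05, where the table had 2.69% of genes higher and 3.22% lower, 0 members were higher and 1, EGR2, was lower. DESeq2 and limma voom also called 0 members. A negative log2 fold change was found in 7 of the 8, against 49.8% of all tested genes. That count rested on control library 1: without it 4 of 8 were negative (49.6% of all genes tested there). The median log2 fold change of the 8 was then 0.0038, against 0.0020 over all genes tested there. With all libraries the medians were -0.15 for the 8 and 0.0011 over all tested genes. The samples are bulk RNA, so fewer expressing cells and less RNA per cell cannot be told apart in any of these values.

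The mimic was first set against the transcripts themselves. A microRNA pairs through its seed, bases 2 to 8, with complementary letters in the 3′ untranslated region of a messenger RNA. The mature miR-125a-5p (RefSeq, GRCh38.p14) is shown with the seed in capitals, followed by the matches in FOSL2 and IER2, the only tested members with one. Each match is in capitals within 30 bases of the longest 3′ untranslated region annotated in GENCODE 29 (GRCh38, plus strand).
miR-125a-5p: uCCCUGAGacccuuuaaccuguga
FOSL2, chr2:28413446-28413475: ccaccctggctCTCAGGGtgacgccaccca
FOSL2, chr2:28416745-28416774: agagtagggtaTCAGGGtgtcttttctgcc
IER2, chr19:13154221-13154250: ttaaagatctcCTCAGGGtcggacttcatt

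The first FOSL2 match and the IER2 match were the 7-base site CTCAGGG, which pairs with the whole seed, and the second FOSL2 match was the 6-base core TCAGGG. The FOSL2 site lay 1009 bases after the stop codon in a region of 4864 bases, and the IER2 site 374 bases after it in a region of 1050 bases. Both were present in every model of their gene with an annotated 3′ untranslated region (2 of 2 and 3 of 3). FOSL2 had 4 annotated transcripts in all. EGR3, which had too few counts to test, also held a 7-base site in 1 of its 3 such models. FOS, FOSB, JUN, JUNB, JUND, EGR1 and EGR2 held no 6-base match. Over the 12843 tested genes with an annotated region, the best match was the full 8-base site in 6.70% and the 7-base site CTCAGGG in 11.4%. It was another 7-base site, TCAGGGA, in 8.77% and the 6-base core in 13.7%, and 59.5% had no match. The median length of these regions was 1622 bases. A match is a description of letters, and repression at these sites was not measured.

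**Figure D1:**
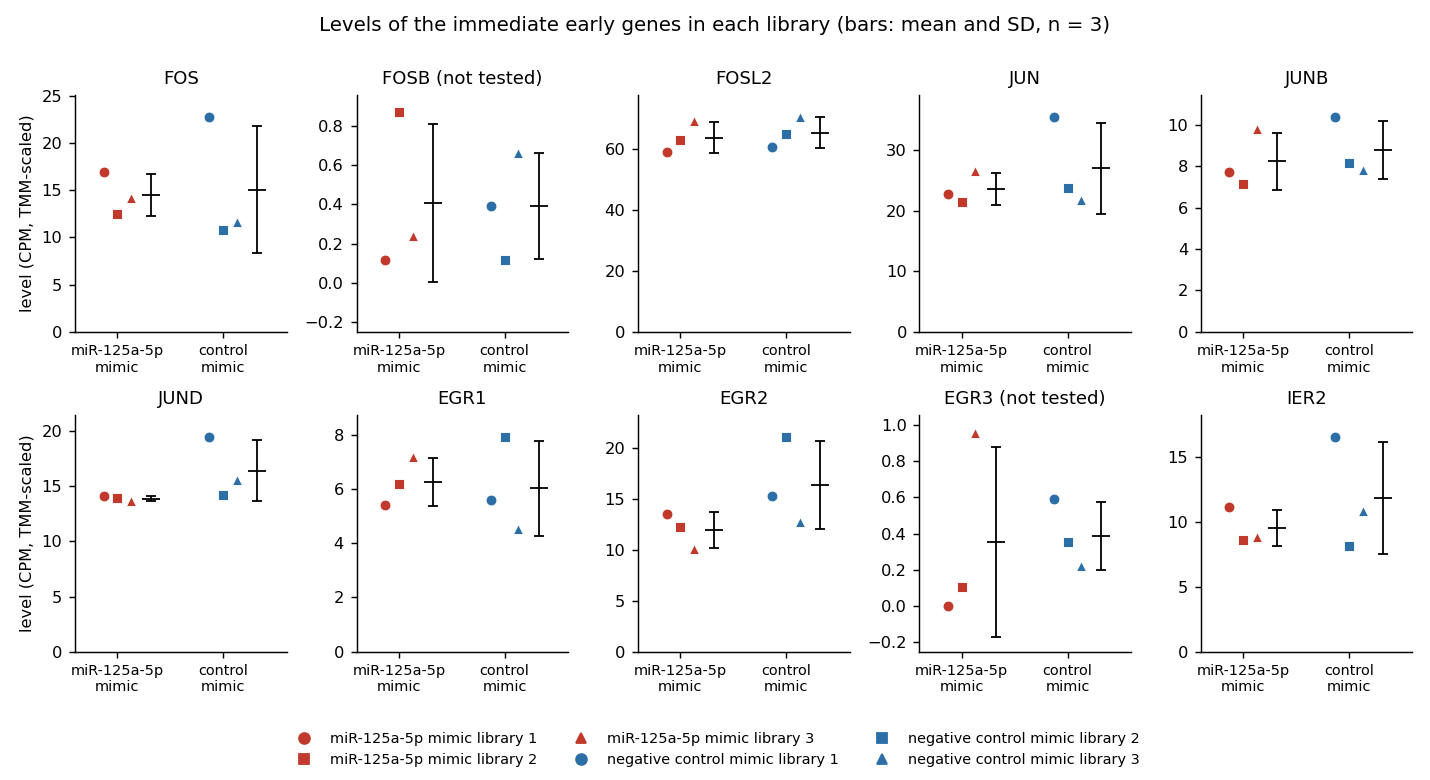
Level of each of the 10 genes in every library, in TMM-scaled CPM, with miR-125a-5p mimic libraries in red on the left and negative control mimic libraries in blue on the right of each panel. Black bars are the mean and SD of 3 libraries. Control library 1 (blue circle) is the highest point for FOS, JUN, JUNB, JUND and IER2.

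FOS, the founding partner of JUN in AP-1, had 16.9, 12.5 and 14.1 CPM in miR-125a-5p libraries 1, 2 and 3, against 22.8, 10.8 and 11.6 CPM in control libraries 1, 2 and 3. The miR-125a-5p libraries all lay inside the range of the controls, between the high control library 1 and the other two. The means were 14.5 ± 2.23 CPM and 15.0 ± 6.70 CPM (SD, n = 3 each), and the log2 fold change was -0.06 (SE 0.23, 95% interval -0.55 to 0.42, edgeR adjusted p = 0.986). Without control library 1 the sign turned: all 3 miR-125a-5p libraries then exceeded both remaining controls in FOS, with a log2 fold change of 0.37 (95% interval -0.07 to 0.81, edgeR adjusted p = 0.835). It was also positive without miR-125a-5p library 2, at 0.035. FOS had 91 to 232 counts per library.

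FOSL2 (FRA2), a FOS relative that usually responds later, had 59.1, 63.0 and 69.1 CPM in the miR-125a-5p libraries, against 60.5, 65.0 and 70.6 CPM in the controls. The ranges nearly coincided, and control library 1 was here the lowest control. With a log2 fold change of -0.04 (SE 0.11, 95% interval -0.27 to 0.20, edgeR adjusted p = 0.984), FOSL2 gave the narrowest interval of the 8. It had -0.09 without control library 1. Its counts were also the highest, 503 to 639 per library. The sign was positive when control library 3 (0.023) or miR-125a-5p library 1 (0.014) was left out. FOSB, the third FOS relative, had 1, 8 and 2 counts in miR-125a-5p libraries 1, 2 and 3, against 4, 1 and 6 in the controls. It was too low to test, and the groups overlapped.

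JUN, the central AP-1 subunit, had 22.8, 21.5 and 26.6 CPM in the miR-125a-5p libraries, against 35.5, 23.7 and 21.8 CPM in the controls. Only control library 1 stood above the rest, and the other 5 libraries spanned 21.5 to 26.6 CPM. The log2 fold change was -0.20 (SE 0.17, 95% interval -0.56 to 0.16, edgeR adjusted p = 0.919) with all libraries and 0.05 without control library 1.

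JUNB, a weaker activator that can hold JUN in check, had 7.75, 7.17 and 9.82 CPM in the miR-125a-5p libraries, against 10.4, 8.17 and 7.84 CPM in the controls. Control library 1 and miR-125a-5p library 3 were the 2 highest, and the groups overlapped. The log2 fold change was -0.10 (SE 0.24, 95% interval -0.59 to 0.39, edgeR adjusted p = 0.975), and 0.04 without control library 1. In the annotation, exons of JUNB overlap those of HOOK2 by up to 259 bases. The strand setting of the counting is not given in the sources used here, so reads there cannot be told apart. HOOK2 itself stood at 2.80 ± 0.514 CPM after the miR-125a-5p mimic and 2.58 ± 0.376 CPM after the control mimic (SD, n = 3 each).

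JUND, the most constitutive of the JUN genes, had 14.1, 13.9 and 13.7 CPM in the miR-125a-5p libraries, against 19.5, 14.2 and 15.6 CPM in the controls. It was the 1 member of 8 whose groups did not overlap in either direction, against 1651 of all 14731 tested genes. Lower in this way were 5.90% of tested genes. The gap was small, with 14.1 CPM in the highest miR-125a-5p library and 14.2 CPM in the lowest control library. Its log2 fold change was -0.25 (SE 0.19, 95% interval -0.63 to 0.14, edgeR adjusted p = 0.909), and -0.10 without control library 1. The 3 miR-125a-5p libraries had an SD of 0.221 CPM around their mean of 13.9 CPM, against 2.76 CPM around 16.4 CPM in the controls.

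EGR1, a zinc finger factor that responds to growth factor signals, had 5.40, 6.20 and 7.19 CPM in the miR-125a-5p libraries, against 5.59, 7.93 and 4.53 CPM in the controls. The highest and the lowest value both belonged to control libraries, and control library 1 was in the middle. The log2 fold change was 0.06 (SE 0.28, 95% interval -0.53 to 0.65, edgeR adjusted p = 0.988). It was 0.0079 without control library 1, -0.11 without control library 3 and -0.051 without miR-125a-5p library 3. EGR1 had 41 to 67 counts per library and the widest interval of the 8.

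EGR2, a relative of EGR1 with roles in myeloid cells and in the nerve sheath, had 13.5, 12.2 and 10.1 CPM in the miR-125a-5p libraries, against 15.2, 21.1 and 12.7 CPM in the controls. The groups overlapped only through miR-125a-5p library 1, which was above control library 3. EGR2 averaged 11.9 ± 1.74 CPM after the miR-125a-5p mimic and 16.3 ± 4.30 CPM after the control mimic (SD, n = 3 each). Its log2 fold change of -0.45 (SE 0.21, 95% interval -0.88 to -0.02) was the largest among the 8 and had an unadjusted p of 0.0406 in the edgeR fit across all genes, but did not pass after adjustment (edgeR adjusted p = 0.833). It was -0.50 without control library 1 and -0.23 without control library 2, the library with the highest EGR2. No 6-base match to the seed was present in its 3′ untranslated region.

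EGR3 had 0, 1 and 8 counts in miR-125a-5p libraries 1, 2 and 3, against 6, 3 and 2 in the controls, and was not tested. The count of 0 allows a level of up to 0.352 CPM (3 counts), for counting error only.

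IER2, a short-lived nuclear regulator encoded by an immediate early gene, had 11.2, 8.59 and 8.86 CPM in the miR-125a-5p libraries, against 16.6, 8.17 and 10.8 CPM in the controls. Control library 1 was the highest and control library 2 the lowest, so the controls enclosed all 3 miR-125a-5p libraries. The log2 fold change was -0.32 (SE 0.24, 95% interval -0.82 to 0.18, edgeR adjusted p = 0.908), and -0.00041 without control library 1.

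**Figure D2:**
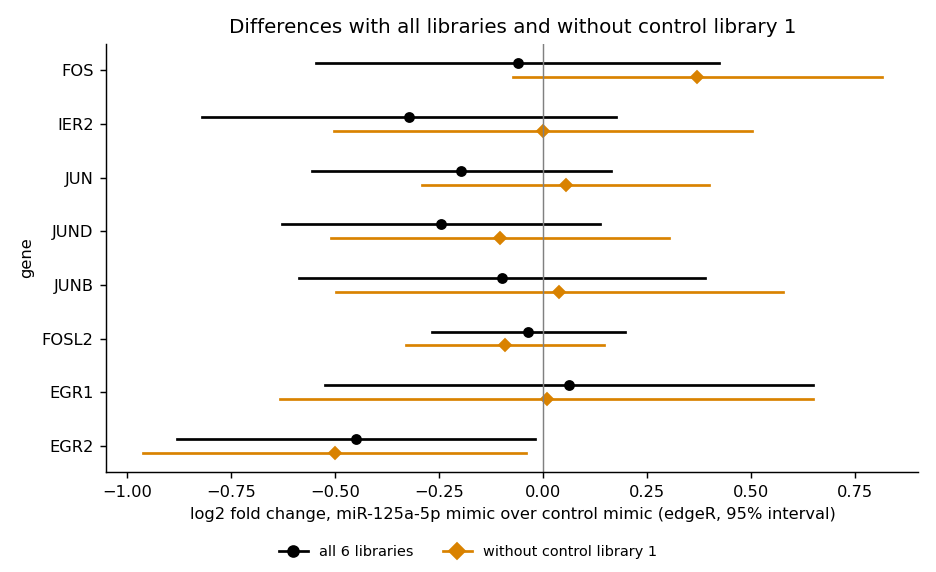
Log2 fold change (miR-125a-5p mimic over control mimic) with its 95% interval from edgeR's quasi-likelihood fit, for the 8 tested genes, with all 6 libraries (black circles) and without control library 1 (orange diamonds). Without that library FOS moves to 0.37 and IER2 to -0.00041, and EGR2 is at -0.50.

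The intervals state what these libraries could and could not show. With all libraries, that of FOSL2 ran from -0.27 to 0.20 on the log2 scale and those of JUN and JUND reached no lower than -0.56 and -0.63. The intervals of EGR2 and IER2 reached lowest, from -0.88 to -0.02 and from -0.82 to 0.18. Those of FOS, JUNB and EGR1 reached from -0.55 to 0.42, from -0.59 to 0.39 and from -0.53 to 0.65. A missed threshold therefore does not show that these genes did not differ.

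**Figure D3:**
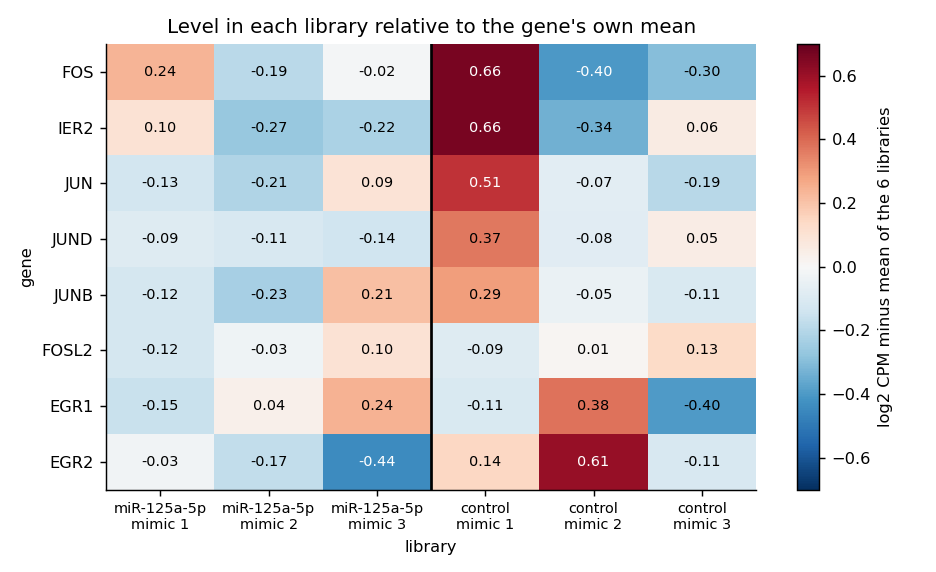
Log2 CPM of each tested gene in each library minus the gene's mean over the 6 libraries, miR-125a-5p mimic libraries on the left of the line and control mimic libraries on the right. FOS, IER2, JUN, JUND and JUNB are highest in control library 1 (0.29 to 0.66), whereas EGR1 and EGR2 are highest in control library 2 (0.38 and 0.61).

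The members did not all vary alike across the libraries, as the plot of centred levels shows. FOS, IER2, JUN, JUND and JUNB had their highest level in control library 1, that is 5 of 8 tested members, against 21.3% of all tested genes. In that library FOS was 1.73, IER2 1.74 and JUN 1.53 times the mean of the other 5 libraries. On the scale of log2 CPM, 3 of 8 members were over 1.5 times the mean of the other 5, against 2.28% of the 11597 genes of at least 5 CPM. EGR1 and EGR2 were highest in control library 2, at 7.93 and 21.1 CPM, and FOSL2 in control library 3. Of the 8 tested members 0 were highest in a miR-125a-5p library, against 49.1% of all tested genes. Without control library 1, FOS, JUN, JUNB and IER2 were highest in one (4 of 8, against 61.4% of all genes tested there). Once control library 1 was left out, the groups of FOS (higher) and JUND (lower) did not overlap, that is 2 of 8 members, a share close to the 22.4% of all genes tested there. Control library 1 also had the most counts, and the part of its depth in these levels was not tested.

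By the root mean square difference of centred log2 CPM over the 6 libraries, JUN and JUNB were the closest pair of members (0.11), then JUN and JUND (0.15), JUNB and JUND (0.17), and FOS and IER2 (0.18). JUNB had only 66 to 106 counts per library, and the part of counting error in these differences was not tested. A small spread also lowers this measure. FOSL2 and JUNB (0.21) ranked closer than FOS and JUN (0.22), although FOSL2 was below its mean in control library 1. EGR1 and IER2 were the farthest apart (0.53), and EGR1 and FOS differed by 0.50. EGR1 and EGR2, both highest in control library 2, differed by 0.35. Among 11589 other genes of at least 5 CPM, the profile of FOS was nearest to those of CKLF, a chemokine-like factor (0.093), SMAD7, an inhibitor of TGF-beta signalling (0.096), and the read-through gene CKLF-CMTM1 (0.10), which can share reads with CKLF. SMAD7 had 12.7, 10.8 and 12.1 CPM in the miR-125a-5p libraries, against 20.9, 8.41 and 9.94 CPM in the controls. The profile of JUN was nearest to those of VDR, the vitamin D receptor (0.041), CEBPA, a myeloid transcription factor (0.063), and SKA1, a kinetochore protein (0.066). CEBPA had 127.8, 107.8 and 135.7 CPM in the miR-125a-5p libraries, against 177.6, 126.3 and 107.8 CPM in the controls. EGR1 was nearest to TAPBPL (0.044), ZNF646 (0.067) and FAM106A (0.079), none of which was high in control library 1. EGR1 itself was not high there. All these neighbours were picked for likeness over the same 6 libraries, so a shared high or low library follows from the choice.

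The promoters of the members were read for binding motifs of the factors known to drive immediate early genes. RefSeq promoter windows (GRCh38.p14, 250 bases before to 50 after the start) were matched for 9 of the 10 members. Searched on both strands were the CArG box bound by SRF, the cAMP response element TGACGTCA, the AP-1 site TGANTCA, the EGR sites GCGGGGGCG and GCGTGGGCG, and the TATA box TATAAA, which may overlap one another. Stretches of 60 bases are shown for EGR1, EGR2, JUND, FOS and JUNB, 5′ to 3′ along the gene, with the motif in capitals: CArG boxes in the EGR genes, a cAMP response element in JUND and a TATA box in FOS and JUNB.
EGR1, chr5:138465360-138465419, plus strand: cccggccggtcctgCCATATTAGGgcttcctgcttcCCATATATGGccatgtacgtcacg
EGR2, chr10:62816403-62816462, minus strand: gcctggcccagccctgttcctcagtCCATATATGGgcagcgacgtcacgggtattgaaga
JUND, chr19:18281789-18281848, minus strand: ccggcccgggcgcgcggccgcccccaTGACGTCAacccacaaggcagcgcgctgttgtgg
FOS, chr14:75278768-75278827, plus strand: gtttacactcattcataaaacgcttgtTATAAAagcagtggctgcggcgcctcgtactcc
JUNB, chr19:12791428-12791487, plus strand: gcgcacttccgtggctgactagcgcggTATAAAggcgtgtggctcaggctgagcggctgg

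Of the members searched, EGR1 and EGR2 had CArG boxes, EGR1 at -105 and -83 and EGR2 at -71 from the start in 1 of its 3 windows, and the box CCATATATGG was the same in both genes. A CArG box was found in 1.29% of all 35116 windows. The cAMP response element of JUND began at -200 and was found in 1.85% of windows. The TATA box of FOS, FOSB and JUNB lay between -33 and -25, in 11.5% of windows. FOSL2 had an AP-1 site just after its start (7.71% of windows), and no member held an EGR site (5.77%). JUN and IER2 had none of these letters in their window. A motif outside the window was not looked for, and absence of a match says nothing about the factor.

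**Figure D4:**
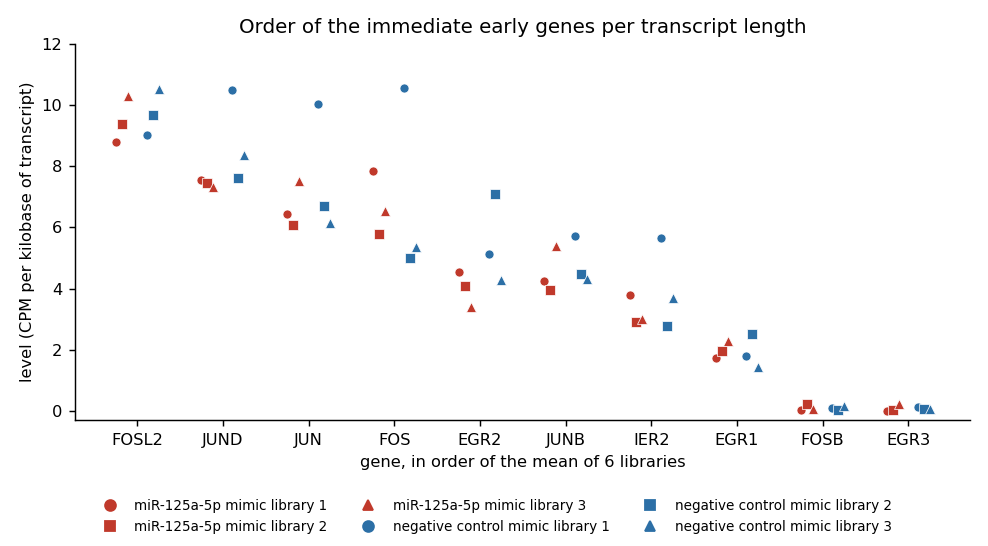
Level of each gene in every library in CPM per kilobase of its longest annotated transcript, ordered by the mean of the 6 libraries, with miR-125a-5p mimic libraries (red) left of control mimic libraries (blue). The first 8 genes lie between 1.44 and 10.5, and FOSB and EGR3 at 0.230 or below.

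Levels between genes were compared per kilobase of the longest annotated transcript. In the order of the mean over 6 libraries, FOSL2 was first at 9.62 CPM per kilobase, followed by JUND (8.14), JUN (7.15), FOS (6.85), EGR2 (4.76), JUNB (4.69), IER2 (3.65) and EGR1 (1.96). FOSB and EGR3 were far below, at 0.106 and 0.0858 CPM per kilobase. Within the miR-125a-5p libraries FOSL2 lay above JUND, FOS above EGR2, JUNB above IER2, IER2 above EGR1 and EGR1 above FOSB without overlap, while the other neighbours overlapped. Within the controls the first 6 genes each overlapped the next, and the steps from IER2 to EGR1 and from EGR1 to FOSB did not. With all annotated exons of a gene merged the order changed: JUNB (4.69) then came before FOS (4.56 CPM per kilobase) and EGR2 (3.83), and EGR3 (0.0766) before FOSB (0.0720).

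The other genes of the pathway were read from lists, chosen like the members with earlier results of these data known. The lists share genes, among them ATF3, CREB1 and ZFP36, so their counts are not separate. In the edgeR fit over all genes, 0 genes of any list were called higher or lower. At an unadjusted p under 0.05, which 5.92% of all tested genes had, the counts were 1 of 17 bZIP dimer partners, 2 of 24 tested further immediate early genes, 1 of 14 upstream factors, 2 of 25 MAP kinase cascade genes, 0 of 5 EGR partners, 1 of 18 reported AP-1 and EGR targets, and 2 of 9 AU-rich decay factors. DESeq2 and limma voom also called 0 genes of these lists. Of the genes named below, ATF7, MEF2A, ELK1, MKNK2 and SP1 were lower and CNOT7 higher without overlap between the groups. Such a gap, in either direction, was found in 1651 of the 14731 tested genes.

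Among 24 tested further immediate early genes, 16 had a negative and 8 a positive log2 fold change, with a median of -0.08. Of all tested genes 49.8% were negative. Leaving out control library 1, 13 of 24 were negative, with a median of -0.02, against 49.6% of all genes tested there. BTG2, an antiproliferative gene, averaged 61.9 ± 9.25 CPM after the miR-125a-5p mimic and 79.1 ± 12.8 CPM after the control mimic (SD, n = 3 each; log2 fold change -0.36, edgeR adjusted p = 0.655). MCL1, an inhibitor of apoptosis, and SGK1, a kinase, had -0.21 and -0.27. Without control library 1 these became -0.23, -0.09 and -0.11 for BTG2, MCL1 and SGK1. Of the 24, 11 were highest in control library 1, against 21.3% of all tested genes. There NR4A3, RHOB, CSRNP1 and GADD45B were 2.07, 1.70, 1.68 and 1.53 times the mean of the other 5 libraries. The smallest ratios were those of CCN2, IER5L and DUSP1, at 0.49, 0.71 and 0.74. Of genes of at least 5 CPM, 2.28% were over 1.5 times, but NR4A3 (2.86 CPM), CCN2, IER5L and DUSP1 averaged less than 5 CPM. All these genes were named after their values were seen.

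Of the 17 dimer partners 13 were negative, with a median of -0.06 (49.8% of all tested genes), and 11 of 17 were without control library 1 (49.6%). BATF2, an AP-1 member of interferon-treated macrophages, averaged 22.8 ± 3.12 CPM after the miR-125a-5p mimic and 27.9 ± 5.35 CPM after the control mimic (SD, n = 3 each; log2 fold change -0.30, edgeR adjusted p = 0.864), and ATF7 had -0.12. They had -0.19 and -0.09 without control library 1. Of the 14 upstream factors 12 were negative, with a median of -0.05, a count that was 9 of 14 without control library 1. MEF2A had 173.6, 155.0 and 157.7 CPM in the miR-125a-5p libraries, against 207.2, 198.4 and 178.3 CPM in the controls, without overlap (log2 fold change -0.26, edgeR adjusted p = 0.655). ELK1, the SRF partner phosphorylated by MAP kinases, had -0.51 at a low level of 3.28 ± 0.512 CPM after the miR-125a-5p mimic and 4.68 ± 0.404 CPM after the control mimic (SD, n = 3 each). The coactivator EP300 had -0.12. Leaving out control library 1 gave MEF2A -0.22, ELK1 -0.59 and EP300 -0.19.

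In the MAP kinase cascade 15 of 25 genes were negative (49.8% of all tested genes), with a median of -0.05. Without control library 1 it was 14 of 25 (49.6%). MKNK2, a kinase of the translation factor eIF4E, had 22.4, 17.8 and 23.6 CPM in the miR-125a-5p libraries, against 33.4, 30.9 and 24.1 CPM in the controls, without overlap (log2 fold change -0.47, edgeR adjusted p = 0.615). RPS6KA1 and RPS6KA5, kinases activated by MAP kinases, had -0.29 and -0.69. RPS6KA5 was low, at 3.30 ± 0.632 CPM after the miR-125a-5p mimic and 5.32 ± 1.54 CPM after the control mimic (SD, n = 3 each). Its SE was 0.33 (edgeR adjusted p = 0.843). Leaving out control library 1 gave MKNK2 -0.37, RPS6KA1 -0.40 and RPS6KA5 -0.72. Among the EGR partners SP1 had -0.12, CEBPB -0.38 and WT1 0.13, and without control library 1 SP1 had -0.13, CEBPB 0.40 and WT1 0.12. CEBPB was low and uneven, with 6.87, 1.18 and 3.20 CPM in control libraries 1, 2 and 3 (SE 0.46 with all libraries).

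Of the 18 tested reported targets of AP-1 and EGR factors, 9 were positive and 9 negative, with a median of -0.0074. TGFB1 had a log2 fold change of -0.34, the haem oxygenase HMOX1 -0.28 and cyclin D1 (CCND1) 0.28. Without control library 1 they were -0.17, -0.11 and 0.43. Of the 9 AU-rich decay factors 4 were negative (49.8% of all tested genes), and 3 without control library 1 (49.6%). CNOT7, a deadenylase subunit, had 90.8, 90.5 and 93.5 CPM in the miR-125a-5p libraries, against 73.7, 66.1 and 78.9 CPM in the controls, and every miR-125a-5p library was above every control (log2 fold change 0.33, edgeR adjusted p = 0.544). ZFP36L1 and ZFP36 (tristetraprolin), which bind AU-rich elements and speed decay, had -0.29 and -0.19. The values without control library 1 were 0.33 for CNOT7, -0.23 for ZFP36L1 and -0.045 for ZFP36.

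**Figure D5:**
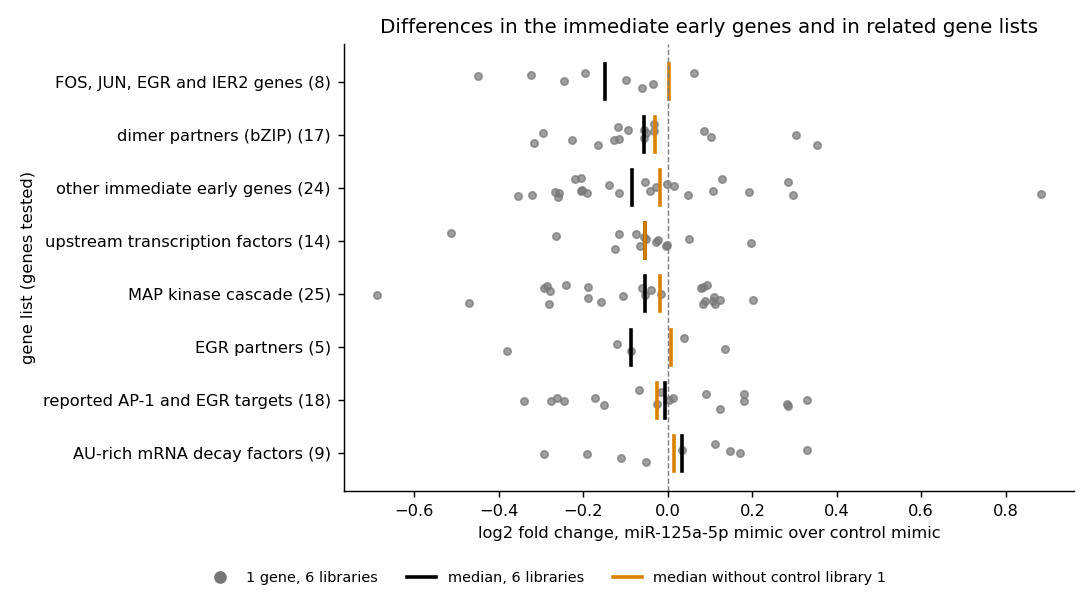
Log2 fold change (miR-125a-5p mimic over control mimic) of each tested gene in the immediate early genes and in 7 related lists. Points are single genes, jittered vertically, black lines medians with all 6 libraries and orange lines medians without control library 1. The median of the 8 members moves from -0.15 to 0.0038 when that library is left out.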

How the data were processed

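The authors deposited 1 table of raw read counts per gene for the 6 libraries, without normalization. The submitters' processing notes name TopHat, bcl2fastq and edgeR, and the build hg19. How reads were counted (tool, annotation, strand, reads matching several genes) is not given in the sources used here. Columns were matched by label, with 0 left over. Symbols came from RefSeq for 26204 of 26347 identifiers (99.46%).

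The test was run in R 4.3.3 with edgeR 4.0.16, using filterByExpr, the trimmed mean of M-values, glmQLFit and glmQLFTest at package defaults and no covariate. Adjusted p-values are Benjamini-Hochberg over all 14731 genes kept, with a threshold of 0.05. The fit was also run on simulated counts with larger changes than those of the members and no library standing apart. That run cannot speak for changes as small as theirs. Profiles used log2 CPM with a prior count of 2. DESeq2 1.42.0, limma 3.58.1 (voom), other scaling and filters, each library left out and a replicate block were alternatives. Transcript lengths and 3′ untranslated regions came from GENCODE 29 (GRCh38), a build other than that of the counts. The members and lists were chosen with earlier results of these data known. Named are all members, up to 4 called or else the 3 smallest p in each list, and the 3 nearest profiles of FOS, JUN and EGR1. One gene that this rule names is not reported here. The TATA box, ATTTA counts, and the lists and group overlap without control library 1 were added after seeing the data. Counts of the highest library, ratios in control library 1 and member pairs were not among the planned results.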

Additional observations from a re-analysis of the deposited data

How the results depend on the processing

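No alternative called a member higher or lower. Counts over the whole table moved: without the count filter 11 genes were higher and 41 lower, by DESeq2 2 and 11, and with the replicate block 9 were lower. With 1 library left out the table had 0 to 2 higher and 3 to 14 lower genes. With the block, the log2 fold change of FOS was 0.0034. Same-numbered libraries had correlations of deviations of 0.095, 0.062 and -0.013, so the numbers were not taken as pairs. With 1 library left out, log2 fold changes ran from -0.25 to 0.37 for FOS, -0.10 to 0.023 for FOSL2, -0.33 to 0.053 for JUN, -0.24 to 0.038 for JUNB and -0.11 to 0.30 for EGR1, and kept their sign for JUND (-0.34 to -0.10), EGR2 (-0.60 to -0.23) and IER2 (-0.53 to -0.00041). The highest values of FOS, JUN, JUNB, JUND and IER2 came without control library 1. The members' median ran from -0.25 to 0.0038. Merged exons put FOS at 4.56 CPM per kilobase, and without control library 1 the groups of 2 of 8 members did not overlap (FOS higher, JUND lower), near the 22.4% of all genes tested there. The cause of these changes was not tested beyond the library or setting named. Depth limits EGR1, with 41 to 67 counts per library, and leaves FOSB and EGR3 untested.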

Other observations

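The pentamer ATTTA, part of the AU-rich elements that mark short-lived messages, was counted in the longest 3′ untranslated region of each member. FOS held 5 copies, or 6.20 per kilobase, and JUNB 2, or 4.0 per kilobase. JUN had 3 copies (2.33 per kilobase), FOSL2 9 (1.85 per kilobase) and EGR2 2 (1.65 per kilobase). JUND, FOSB, EGR3 and EGR1 lay at 1.47, 1.38, 1.07 and 0.810 copies per kilobase, and IER2 had 0. The median over 12843 tested genes was 1.54 per kilobase, and 5 of the 10 members were above it. Per kilobase, FOS held the most copies of the 10 members and IER2 the fewest. Whether these copies bear on the levels was not tested.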
